A study of Mus musculus with 45 samples.

Results

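Lgr4, Lgr5 and Lgr6 are the receptors of the R-spondins (Rspo), and Rnf43 and Znrf3 are the membrane E3 ubiquitin ligases that those receptors act on. These 5 genes were taken by symbol from the 52636 genes of the deposited tables, and each symbol was present once in both tables. R-spondins are secreted proteins that strengthen the response of a cell to Wnt. RNF43 and ZNRF3 mark the Frizzled Wnt receptors for removal from the cell surface, and an R-spondin that binds an LGR receptor and a ligase draws the ligase away, so that more Frizzled remains. In the crypts of the small intestine Lgr5 marks the stem cells, and Lgr5, Rnf43 and Znrf3 are themselves transcribed in response to Wnt, the ligases thereby acting as a brake on the pathway.

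The study asked what Lgr5 does in intestinal stem cells of fetal and adult mice, and how organoids with and without Lgr5 answer to different R-spondins. RNA was sequenced from 15 libraries of sorted stem cells and from 30 libraries of organoids. The values are CPM, the reads of a gene scaled by the authors to a common total of reads counted on genes. Fold changes are on the log2(CPM + 1) scale, which understates changes of genes at low CPM.

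Fetal and adult cells came from Lgr5-DTReGFP mice, in which a reporter inserted in Lgr5 gives a null allele, and were sorted as eGFP-positive. The controls of this line were heterozygous (HE) and so carried 1 null allele. At E16.5, counted in days of embryonic development, cells of the whole small intestine were pooled from 7 HE and 2 homozygous null (KO) embryos of litter 85, and from 8 HE and 6 KO embryos of litter 97, which gave 2 libraries for each genotype. At E18.5 there were 2 libraries, each from the whole small intestine of a single HE embryo. From each of 2 HE adults of 2 months, duodenum and ileum gave a library each. A further 5 libraries came from the ileum of 2-month-old mice with an Lgr5-Cre knock-in allele, which also drives eGFP, that had received 2 mg of tamoxifen 48 h earlier. They were sorted as eGFP- and RFP-positive, and the labels give 2 as Lgr5-Cre/+ (HE) and 3 as Lgr5-Cre/flox, in which exon 16 of the other allele is floxed (cKO). Organoids were grown from the small intestine of E17.5 Lgr5-DTReGFP embryos to passage 4, in 3 wild-type (WT) cultures numbered 10, 5 and 30 and 2 KO cultures numbered 7 and 2. Each culture received mouse Rspo1, Rspo2 or Rspo3 at 100 or 5 ng/ml, which gave 12 groups of genotype, ligand and dose. The labels give no genetic background of the mice.

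Depth, as read from the smallest step between low CPM values, was 1.28 and 1.98 M (mega) reads in the HE pools and 2.61 and 2.52 M in the KO pools of E16.5, in the order of the litters. It was 4.34 and 4.57 M at E18.5, 5.60 and 4.44 M in duodenum, and 4.11 and 4.37 M in ileum. The Cre libraries held 9.05 and 3.08 M reads under the HE label and 8.12, 5.71 and 9.89 M under the cKO label. Organoid libraries held 18.46 to 33.1 M, with a median of 24.7 M. A single read was worth 0.784 CPM in the shallowest sorted library and 0.0302 CPM in the deepest organoid library. The 7 epithelial markers summed to between 2475 and 6931 CPM in sorted cells and between 3449 and 5331 CPM in organoids.

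Lgr5 (ENSMUSG00000020140) lies on the minus strand of chromosome 10 at 115450311 to 115587780 of GRCm38, and Lgr4 (ENSMUSG00000050199) on the plus strand of chromosome 2 at 109917647 to 110014257. Lgr6 (ENSMUSG00000042793) lies on the minus strand of chromosome 1 at 134983301 to 135105276. Both ligase genes are on chromosome 11, Rnf43 (ENSMUSG00000034177) on the plus strand at 87662722 to 87735539 and Znrf3 (ENSMUSG00000041961) on the minus strand at 5276324 to 5444847. Lgr5 overlaps A930009A15Rik on the opposite strand, which had at most 13.8 CPM in sorted cells and 18.0 CPM in organoids. Rnf43 overlaps Gm25968 on the opposite strand and 1110028F11Rik on its own strand, the latter with at most 20.0 CPM in any library. These 3 genes were named for their position.

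Rnf43 followed R-spondin in organoids closely while Lgr4 hardly moved, so the promoters of these 2 genes are shown, from 250 bases before to 50 after the start, from RefSeq on GRCm38.p6. Of the 5 genes, 3 had a promoter in the table, with 4 promoters in all, and Lgr5 and Znrf3 had none. All shown are on the plus strand, at chr2:109917397-109917696 for Lgr4 and at chr11:87662837-87663136 and chr11:87699647-87699946 for Rnf43. Capitals mark matches to CCAAT, searched on both strands.
Lgr4 promoter: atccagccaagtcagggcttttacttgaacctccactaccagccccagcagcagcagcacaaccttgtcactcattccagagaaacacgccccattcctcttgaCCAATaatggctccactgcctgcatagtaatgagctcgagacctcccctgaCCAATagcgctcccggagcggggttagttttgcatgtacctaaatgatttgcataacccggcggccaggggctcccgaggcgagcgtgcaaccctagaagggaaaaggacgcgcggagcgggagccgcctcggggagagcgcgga
Rnf43 promoter, upstream start: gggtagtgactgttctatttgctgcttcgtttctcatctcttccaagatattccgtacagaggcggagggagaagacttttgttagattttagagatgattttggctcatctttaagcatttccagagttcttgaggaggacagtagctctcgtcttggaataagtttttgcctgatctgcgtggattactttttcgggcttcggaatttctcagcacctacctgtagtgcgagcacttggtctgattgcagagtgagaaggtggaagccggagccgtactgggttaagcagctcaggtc
Rnf43 promoter, downstream start: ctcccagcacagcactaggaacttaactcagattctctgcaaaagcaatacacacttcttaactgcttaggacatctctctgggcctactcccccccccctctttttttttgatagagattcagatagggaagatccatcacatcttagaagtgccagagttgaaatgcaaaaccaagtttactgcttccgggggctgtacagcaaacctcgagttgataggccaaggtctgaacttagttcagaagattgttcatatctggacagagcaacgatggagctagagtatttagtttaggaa
The Lgr4 promoter held 2 CCAAT matches, and the Rnf43 promoters held 0, where 37.4% of 32851 mouse promoters held at least 1. The core letters of TCF/LEF sites, CTTTGA or CTTTGT on either strand, were in 0 of the 4 promoters and in 31.2% of all promoters. The GC box GGGCGG was in the Lgr6 promoter only (35.7% of all promoters), and TATAAA was in none of the 4 (13.6% of all). The promoter of Lgr4 was 58.3% G or C, and those of Rnf43 were 46.7% and 44.3%. These searches cover the printed letters alone, and a match does not show that a factor binds there.

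Lgr5 was read in every library, those of KO and cKO mice included. At E16.5 it had 104 and 125 CPM in the HE pools and 64.8 and 51.7 CPM in the KO pools. It had 306 and 292 CPM at E18.5, 346 and 308 CPM in adult duodenum, and 339 and 356 CPM in adult ileum. Under their labels the Cre libraries had 52.8 and 87.6 CPM (HE) and 89.2, 109 and 90.7 CPM (cKO). Reads counted over the whole gene show neither the deleted exon nor the knock-in allele, so Lgr5 reads in KO and cKO cells are not a measure of intact receptor RNA.

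Cells were sorted on eGFP from the Lgr5 locus, with the reporter on both alleles in KO, and the Cre line on RFP as well. Levels of Lgr5 thus depend on the sort. By group mean the order of Lgr5 in sorted cells was ileum (348 CPM), duodenum (327), E18.5 (299), E16.5 HE (115), cKO (96.4), Cre HE (70.2) and E16.5 KO (58.2). Ileum overlapped with duodenum, E16.5 HE with cKO, and Cre HE with E16.5 KO, and the other neighbours were apart. The Cre groups here follow the labels, which the study's own table contradicts for 2 of 5 libraries. By that table Cre HE (87.6 and 109 CPM) was above cKO (52.8, 89.2 and 90.7 CPM) by mean, with overlap. For Lgr4, the receptor that cells of the crypt express beside Lgr5, the order was ileum (599 CPM), E18.5 (397), duodenum (392), E16.5 KO (258), Cre HE (231), cKO (225) and E16.5 HE (219). E18.5 overlapped with duodenum, and the last 3 groups overlapped with each other but lay apart from E16.5 KO. By the study's table Cre HE (249.95 and 254.5 CPM) lay above cKO (213, 179 and 241 CPM) in Lgr4. Rnf43 ran from cKO (255 CPM) over ileum (189.9), Cre HE (183), duodenum (178), E18.5 (145) and E16.5 KO (128) to E16.5 HE (89.4), where the groups from ileum to E18.5 overlapped in turn. By the study's table cKO had 168, 275 and 247 CPM of Rnf43 and Cre HE 198 and 244 CPM. In that grouping cKO overlapped with Cre HE and with ileum and did not stand apart. Znrf3 had the narrowest span, from 71.2 CPM in duodenum and 67.2 CPM in ileum over cKO (60.6), E18.5 (57.0), Cre HE (53.0) and E16.5 KO (50.4) to E16.5 HE (41.2). Duodenum overlapped with ileum, the groups from cKO to E16.5 KO lay below them and overlapped in turn, and E16.5 HE lay below all others.

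Lgr6 was at or near the limit of detection. It had at most 2.45 CPM in sorted cells and 0 in 9 of 15 libraries, where a count of 0 allows up to 2.35 CPM in the shallowest and 0.525 CPM in the deepest of the 9. In organoids it had at most 0.1 CPM and 0 in 20 of 30 libraries, where a count of 0 allows between 0.0906 and 0.157 CPM. It passed the filter on low values in the Cre comparison only, and in every other comparison 4 of the 5 genes were tested.

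**Figure D1:**
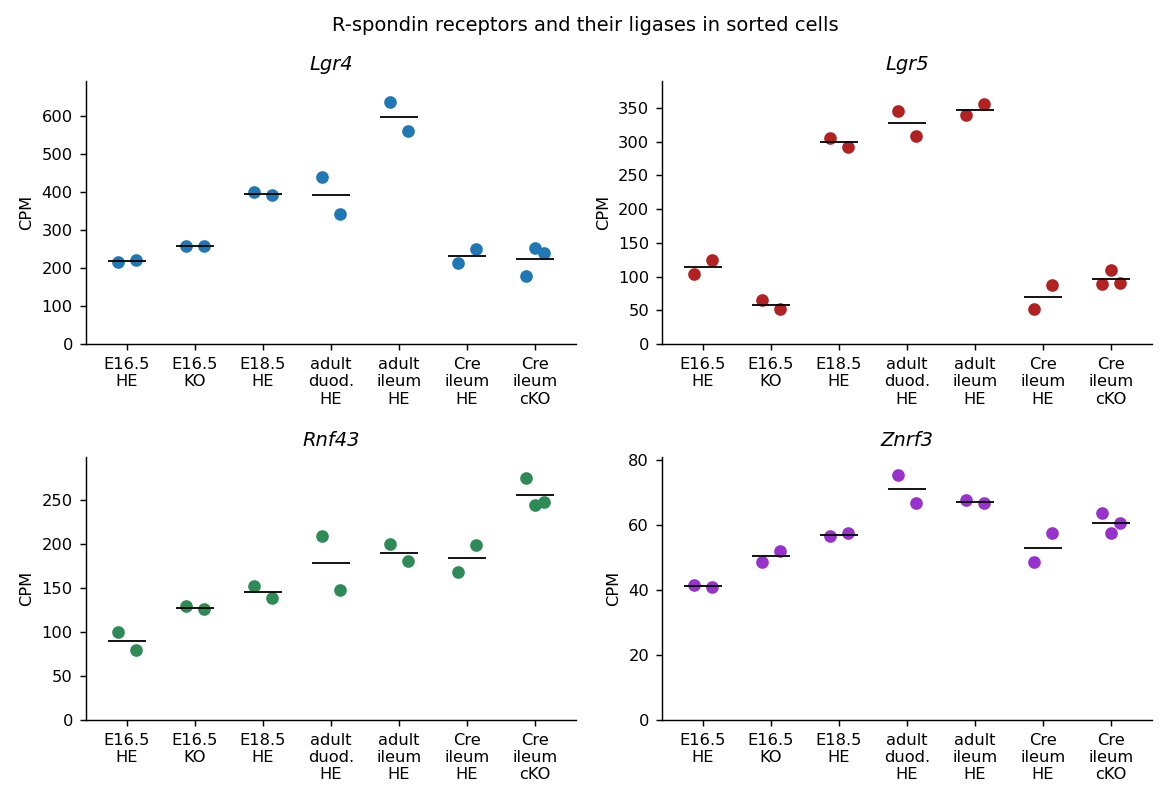
CPM of Lgr4, Lgr5, Rnf43 and Znrf3 (vertical axes from 0) in the 15 libraries of sorted stem cells, by stage, region and labelled genotype, with a point for each library and a line at each group mean. Lgr5 was lower in both E16.5 KO pools (64.8 and 51.7 CPM) than in the HE pools (104 and 125 CPM), and Lgr4 was highest in adult ileum (637 and 560.2 CPM).

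In fetal cells without a functional Lgr5 allele, Lgr5 reads fell and reads of the other 3 measured genes were somewhat higher. Lgr4 had 216 and 222 CPM in the HE pools and 258 and 257 CPM in the KO pools. Rnf43 had 99.6 and 79.2 CPM in HE and 129 and 126 CPM in KO. Znrf3 had 41.6 and 40.9 CPM in HE and 48.7 and 52.1 CPM in KO. For each of the 4 genes the KO pools lay wholly on 1 side of the HE pools, Lgr5 below and Lgr4, Rnf43 and Znrf3 above, as did 46.0% of all genes tested on either side. By limma-trend at a false discovery rate (FDR) of 0.1 and a fold change of 1.5, 1 of 4 genes passed, against 0.527% of all genes tested. Lgr5 fell by 0.97 (SE 0.18, adjusted p 0.0795), with a 95% confidence interval from -1.36 to -0.57. Its call was lost without any single pool of the 4 (adjusted p from 0.330 to 0.924, the lone pool of a genotype being assumed to vary like the other genotype), with a pseudocount of 0.1 (0.206) and with no filter (0.448). With litter as a block the adjusted p was 1.16e-05, and over all alternatives it ran from 1.16e-05 to 0.924. By edgeR and DESeq2 on the recovered reads Lgr5 fell by 1.06, with an adjusted p of 0.0117 in each. Rnf43 differed by 0.52 (adjusted p 0.221), Znrf3 by 0.28 (0.521) and Lgr4 by 0.24 (0.448).

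Among other genes of the pathway, Axin2, a feedback inhibitor induced by Wnt, rose by 0.92 (SE 0.17, adjusted p 0.0795), from 122 and 89.3 CPM in HE to 193 and 205 CPM in KO. It too was lost without any single pool, with a pseudocount of 0.1 (0.206) and with no filter (0.448). Of the feedback inhibitors, 1 of 10 thus rose, and 0 of 13 Wnt-responsive stem cell genes, 0 of 14 Wnt receptors, 0 of 9 heparan sulfate proteoglycans, 0 of 17 cytoplasmic and nuclear components and 0 of 6 related PA-TM-RING ligases passed. With litter as a block, 3 stem cell genes rose, where 4.80% of all genes were called. The median of the stem cell list was 0.39, that of the 4 measured genes 0.26, and that of all genes 0.08.

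Marker transcripts of other cells were unevenly spread over the E16.5 pools, although doublets had been gated out before sorting. The 11 mesenchymal markers summed to 1843 and 809 CPM in the HE pools and to 184 and 497 CPM in the KO pools, with Col3a1 most abundant in all 4 and Twist1 at 0 in 3. Of the 10 tested, 1 passed, and it fell in KO. Enterocyte markers summed to 1336 and 848 CPM in HE and 421 and 298 CPM in KO, with Fabp1 most abundant, and 4 of 6 fell in KO. Smooth muscle markers, led by Myh11, summed to 326 and 358 CPM in HE and 61.8 and 180.3 CPM in KO, and 0 of 5 passed. The part of these differences in the result for the receptors and ligases was not tested. In all comparisons of bulk RNA here, fewer cells of a kind and less RNA per cell cannot be told apart.

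Between E16.5 and E18.5 in HE embryos, both crypt receptors and Rnf43 rose. Lgr5, Lgr4 and Rnf43 were all higher in both E18.5 embryos than in both E16.5 HE pools. Lgr4 had 401 and 392 CPM at E18.5, Rnf43 had 152 and 138 CPM, and Znrf3 had 56.5 and 57.4 CPM, all above the E16.5 values, and 76.3% of all genes were likewise apart. Of 4 genes tested 3 rose, against 49.6% of all genes called in either direction. Lgr5 rose by 1.38 (SE 0.12, adjusted p 0.000595), Lgr4 by 0.86 (SE 0.09, 0.00107) and Rnf43 by 0.70 (SE 0.14, 0.00925). Znrf3 was 0.46 higher (adjusted p 0.0285), which is under the fold limit. Without either E18.5 embryo 0 of the 3 passed (adjusted p 0.132 to 0.222, the lone embryo being assumed to vary like the pools), where 4.24% and 4.17% of all genes were called, and without the HE pool of litter 97 Rnf43 was 0.54 higher, under the fold limit. The E16.5 HE pools here are the controls of the KO comparison as well.

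Stem cell genes that respond to Wnt mostly rose over the same days, 9 of 13 up and 1 down, with a median of 1.03 against 0.23 for all genes. Olfm4 rose by 3.57, Smoc2 by 2.27, and Msi1 and Lrig1 by 1.34 each, and without either E18.5 embryo 2 genes of this list passed, Olfm4 and Smoc2. Feedback inhibitors went mostly down (2 up and 7 down of 10), among them Sfrp1 and Dkk3, secreted antagonists of Wnt, at -4.29 and -3.11. Wnt receptors had 2 up and 1 down of 13, proteoglycans 1 up and 3 down of 9, components 3 up and 3 down of 17, and related ligases 1 up and 4 down of 6. Gpc6 fell by 3.37 and Rnf150 fell by 2.18. Apart from Olfm4 and Smoc2 the genes named here were lost without either E18.5 embryo. Mesenchymal markers fell in 10 of 10 tested, to sums of 69.3 and 83.3 CPM, and endothelial markers in 5 of 5, and their part in the differences between stages was not tested. Stage also went with pooled against single embryos, which cannot be told apart from it.

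From E18.5 to the adult, Lgr4 and Rnf43 were higher in ileum, and Lgr5 and Znrf3 were somewhat higher in both regions. None of them passed with the adult libraries as 1 group. Lgr4 was spread widely in adults, with 439.9 and 343 CPM in duodenum and 637 and 560.2 CPM in ileum, around the E18.5 values in duodenum and above them in ileum. Rnf43 had 209 and 147 CPM in duodenum and 199.5 and 180.4 CPM in ileum. Znrf3 had 75.5 and 66.9 CPM in duodenum and 67.7 and 66.7 CPM in ileum, each above both embryos, as was Lgr5. The share of all genes likewise apart was not counted for this comparison. By limma-trend 0 of 4 genes passed with the adult libraries as 1 group, against 19.0% of all genes, and 1 of 4 had an unadjusted p under 0.05, against 31.4% of all. This fit takes the duodenum and ileum libraries of a mouse as separate samples, although their residuals correlated at 0.257. The differences were 0.28 for Lgr4 (adjusted p 0.456), 0.17 for Lgr5 (0.298), 0.33 for Rnf43 (0.192) and 0.27 for Znrf3 (0.145). Shares of all genes called are given for this fit and not for single adult regions. With the ileum libraries alone as the adult group Lgr4 rose by 0.59 (adjusted p 0.0104, from 0.0104 to 0.895 over the alternatives).

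Other genes of the pathway passed over the same time. Of the stem cell genes 6 of 14 rose, with a median of 0.54 against -0.04 for all genes, among them Ephb3 by 3.47, Sp5 by 2.35 and Cd44 by 2.33. Without the first or the second E18.5 embryo 4 and 3 of the list passed, these 3 in both cases. Feedback inhibitors had 4 up and 1 down of 9, with Tnfrsf19 up by 3.51, and proteoglycans had 4 down of 9, of which Gpc3 fell by 7.01. Wnt receptors had 2 up and 4 down of 13, components 3 up of 17, with the transcription factor Lef1 up by 2.60, and related ligases 1 up of 6. Paneth cell markers rose in 6 of 6, from sums of 152 and 146 CPM at E18.5 to between 11380 and 28690 CPM in adults, where Lyz1 was most abundant. Tuft cell markers rose in 4 of 4, and mesenchymal markers fell in 8 of 9, to sums of at most 8.20 CPM. The part of these cells was not tested.

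Along the adult gut, Lgr4 was the one of the 4 tested receptor and ligase genes that differed most between ileum and duodenum. Both ileum libraries (637 and 560.2 CPM) lay above both duodenum libraries (439.9 and 343 CPM), and within each mouse ileum was higher, while 45.8% of all genes were likewise apart between the regions. Lgr5, Rnf43 and Znrf3 overlapped between the regions. With limma-trend 0 of 4 genes passed, against 6.88% of all genes (0.365% to 3.29% without any single library), and 1 of 4 had an unadjusted p under 0.05, against 16.3% of all. Lgr4 was 0.62 higher in ileum (SE 0.18, adjusted p 0.136), which passed with the mouse as a block (0.0121, where 11.1% of all genes were called) and with the spread taken from all 15 libraries (0.0335), and over all alternatives its adjusted p ran from 0.0121 to 0.768. The share of all genes called with the spread of all 15 libraries is not given here. Lgr5 differed by 0.09 (0.853), Rnf43 by 0.11 (0.857) and Znrf3 by -0.08 (0.874).

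In the same comparison 0 of 14 stem cell genes passed, and 3 rose with the mouse as a block, beside the 11.1% of all genes. Sfrp5, a secreted Wnt antagonist, fell by 3.72 from duodenum to ileum and Tnfrsf19 rose by 0.87, which makes 1 up and 1 down of 8 feedback inhibitors. Down were also 1 of 13 receptors (Fzd4, -1.47), 1 of 5 proteoglycans (Sdc4, -0.70) and 2 of 17 components (Tcf7l1, -1.36, and Dvl1, -0.78), with 0 of 6 related ligases. Sfrp5 also passed without any single library of the 4, and the other 5 genes named here were lost without any of them and with no filter. Enterocyte markers fell in 6 of 6, from 339 and 526 CPM in duodenum to 65.8 and 79.3 CPM in ileum, and tuft cell markers in 4 of 4, from 1713 and 3003 CPM to 208 and 420.4 CPM. Their part in the difference of Lgr4 was not tested.

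The labels and the study's own table give different genotypes for 2 of the 5 Cre libraries. The library labelled HE 1 (Lgr5 52.8 CPM) is listed there as cKO, and the library labelled cKO 2 (Lgr5 109 CPM) is listed as HE. Under the labels, both HE libraries had reads of the Y-linked gene Ddx3y (47.3 and 73.0 CPM) and little Xist (at most 1.70 CPM). All 3 labelled cKO libraries had Xist between 1162 and 1551 CPM and at most 0.15 CPM of Ddx3y, so that labelled genotype and sex cannot be told apart. Both groupings are therefore given for the levels and tests of the receptors and ligases. Counts of the other lists and correlations between genes are by the labels only. Xist and Ddx3y were chosen as marks of sex.

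By the labels, no receptor or ligase passed after loss of Lgr5 in adult ileum. Lgr5 and Rnf43 were higher in all 3 labelled cKO libraries than in both HE libraries, with Rnf43 at 275, 244 and 247 CPM against 168 and 198 CPM. Lgr4 (179, 254.5 and 241 CPM against 213 and 249.95 CPM) and Znrf3 (63.8, 57.4 and 60.6 CPM against 48.6 and 57.4 CPM) overlapped. Lgr6 had 1.00, 0 and 2.45 CPM against 1.00 and 0.65 CPM. With limma-trend 0 of 5 genes passed, against 0.0504% of all genes, and 1 of 5 had an unadjusted p under 0.05, against 4.54% of all. Of all genes 19.3% lay apart between the labelled groups. The difference was 0.49 for Lgr5 (adjusted p 0.864), 0.48 for Rnf43 (0.864), 0.19 for Znrf3 (0.864) and -0.05 for Lgr4 (0.962).

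With the genotypes of the table, Lgr5 had 52.8, 89.2 and 90.7 CPM in cKO and 87.6 and 109 CPM in HE, so that the groups overlapped and the sign of the difference turned to -0.37 (adjusted p 0.368, from 0.368 to 1.00 over the alternatives). Lgr4 was then lower in all 3 cKO libraries (213, 179 and 241 CPM) than in both HE libraries (249.95 and 254.5 CPM). Lgr6 was higher in cKO (1.00, 1.00 and 2.45 CPM against 0.65 and 0 CPM), and Rnf43 and Znrf3 overlapped. The share of all genes apart in this grouping was not counted. By the table the cKO libraries held 9.05, 8.12 and 9.89 M reads and the HE libraries 3.08 and 5.71 M. Genotype and depth therefore cannot be told apart in this grouping. Lgr4 differed by -0.27 (0.284) and Rnf43 by 0.03 (0.936), and again 0 of 5 passed, while the genes called overall went from 10 to 779. By the labels 0 genes passed of the 14 stem cell genes, 12 feedback inhibitors, 13 receptors, 8 proteoglycans, 17 components, 7 related ligases and 1 other leucine-rich repeat receptor tested. Paneth cell markers summed to 3602 and 7006 CPM in the labelled HE and 2641, 5307 and 2833 CPM in the labelled cKO libraries. TMM scaling moved the median of all genes by -0.13 here.

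In organoids the dose of R-spondin set the levels of Lgr5, Rnf43 and Znrf3 apart by wide margins, whereas Lgr4 moved little. With 100 against 5 ng/ml Rspo1, WT cultures 10, 5 and 30 had 116, 192 and 94.2 CPM of Lgr5 against 5.40, 5.65 and 3.45 CPM. With Rspo2 they had 379, 247 and 457.5 CPM against 15.9, 28.7 and 6.10 CPM, and with Rspo3 50.7, 48.9 and 39.4 CPM against 0.35, 0.60 and 0.45 CPM. In WT cultures every library at 100 ng/ml was above every library at 5 ng/ml of the same ligand, and even above all libraries at 5 ng/ml of any ligand. The ratio of the doses within a WT culture was 21.5 to 34.0 with Rspo1, 8.60 to 75.0 with Rspo2 and 81.4 to 145 with Rspo3.

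KO cultures 7 and 2 carried Lgr5 reads as well and showed the dose in 2 of the 3 ligands. They had 57.9 and 91.7 CPM at 100 against 1.10 and 7.40 CPM at 5 ng/ml with Rspo1, and 35.2 and 41.3 CPM against 0.20 and 0.25 CPM with Rspo3. With Rspo2 they had 104 and 75.0 CPM at 100 and 20.6 and 90.5 CPM at 5 ng/ml, so that the doses overlapped. Culture 2 in Rspo2 at 5 ng/ml stood apart from the other low-dose libraries, not in Lgr5 only. Its Axin2 was 433 CPM at 5 against 379 CPM at 100 ng/ml and its Olfm4 1201 against 834 CPM, whereas culture 7 had 138 against 423 CPM of Axin2 and 376 against 878 CPM of Olfm4. Tests with Rspo2 at 5 ng/ml in KO are therefore also given without culture 2.

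Rnf43, the ligase with the wider response, went from 173, 226 and 139 CPM at 100 to 34.2, 38.6 and 31.7 CPM at 5 ng/ml Rspo1 in WT cultures 10, 5 and 30. With Rspo2 it went from 327, 266 and 338 CPM to 58.9, 82.2 and 36.6 CPM, and with Rspo3 from 112, 115 and 86.0 CPM to 22.2, 25.9 and 22.8 CPM. Doses did not overlap for any ligand in WT. How many of all genes lay apart between doses was not counted, here or for the other receptor and ligase genes. In KO cultures 7 and 2 Rnf43 had 251 and 194 CPM at 100 and 32.4 and 53.4 CPM at 5 ng/ml Rspo1, 350.0 and 205 CPM and then 165.5 and 189 CPM with Rspo2, and 187 and 129.9 CPM and then 27.0 and 23.9 CPM with Rspo3. Rspo2 at 5 ng/ml left Rnf43 in KO within the range of the high doses, below its own high-dose libraries. Znrf3 spanned 51.9 to 139 CPM at 100 and 13.9 to 49.3 CPM at 5 ng/ml in WT, and 44.3 to 82.2 CPM and 9.70 to 70.4 CPM in KO, where doses overlapped across ligands but not within any ligand.

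Within the 15 pairs of libraries from a culture and ligand, the level at 100 was above that at 5 ng/ml in 15 for Rnf43 (median ratio 5.05, from 1.09 to 9.23), in 15 for Znrf3 (3.19, from 1.09 to 4.56) and in 14 for Lgr5 (34.0, up to 176). Such pairs were not counted for all genes, whose median log2 difference was itself above 0 in every test of dose, from 0.0351 to 0.281. Lgr4 was higher in 14, with ratios of 0.954 to 1.30 and a median of 1.15. It spanned 256 to 332 CPM at 100 and 205 to 279 CPM at 5 ng/ml in WT, and 264 to 355 CPM and 242 to 318 CPM in KO. Over the 3 ligands together the doses of Lgr4 thus overlapped in both genotypes, while within a ligand they were apart for all 3 ligands in WT and for Rspo1 in KO. With Rspo2 in WT the nearest libraries of the doses had 278.95 and 278.55 CPM. The share of all genes likewise apart between doses was not counted.

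**Figure D2:**
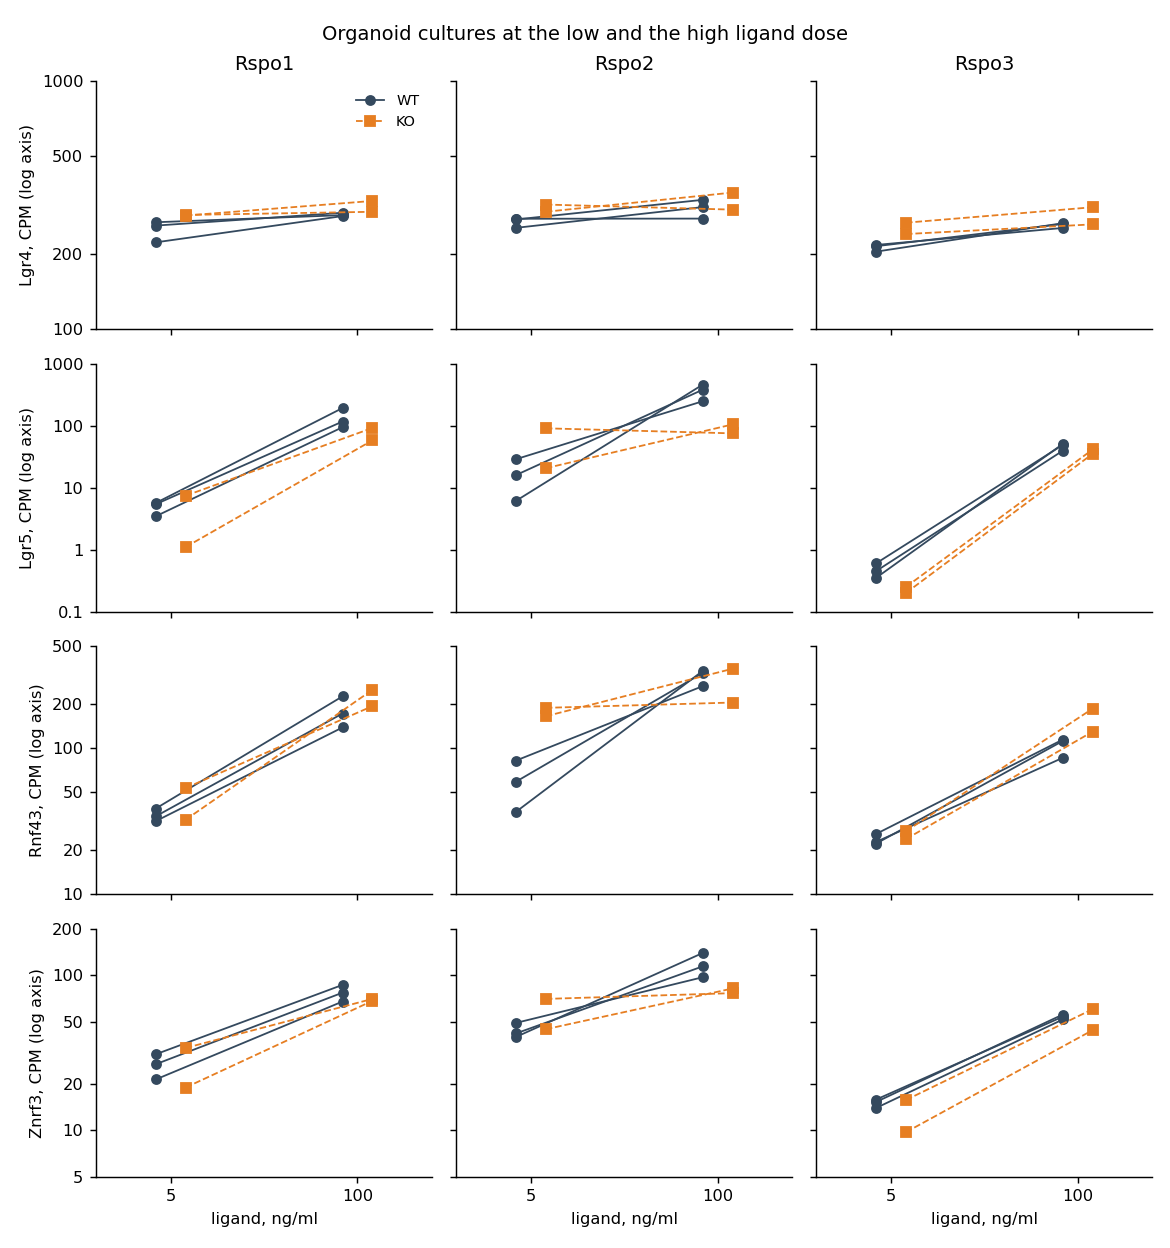
CPM (log axis) of Lgr4, Lgr5, Rnf43 and Znrf3 in organoids at 5 and 100 ng/ml of Rspo1, Rspo2 and Rspo3, with lines that join the libraries of a culture, circles for WT and squares for KO. Lgr5 in WT went from at most 28.7 CPM to at least 39.4 CPM, while KO culture 2 in Rspo2 had 90.5 CPM at the low and 75.0 CPM at the high dose.

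Tested in a single limma fit of the 12 groups at an FDR of 0.05, 16 of the 24 tests of dose passed, 4 genes in 6 pairs of genotype and ligand, and all 16 were higher at 100 ng/ml. Of all genes, 53.4% (Rspo1), 33.4% (Rspo2) and 51.4% (Rspo3) were called in WT and 29.8%, 0.115% and 44.5% in KO. Without WT cultures 10 and 30 in turn the 33.4% became 17.0% and 9.31%. Without KO culture 7 the 29.8% became 2.53%, and the 3 genes called for Rspo1 in KO still passed. In WT, Lgr5 rose by 4.49 with Rspo1 (SE 0.49, adjusted p 4.24e-07), by 4.52 with Rspo2 (1.56e-06) and by 5.01 with Rspo3 (3.37e-08). Rnf43 rose by 2.31, 2.44 and 2.09 (SE 0.25, adjusted p 3.13e-07, 7.42e-07 and 3.78e-07) and Znrf3 by 1.53, 1.39 and 1.78 (SE 0.20, 2.81e-06, 3.86e-05 and 1.98e-07). In KO, Lgr5 rose by 4.14 with Rspo1 (SE 0.61, 8.31e-05) and 5.00 with Rspo3 (1.07e-06), Rnf43 by 2.38 and 2.57 (SE 0.30, 2.65e-05 and 7.53e-07) and Znrf3 by 1.42 and 1.98 (SE 0.25, 0.000335 and 1.48e-06). With Rspo2 in KO 0 of 4 genes passed by limma and 0 had an unadjusted p under 0.05 (6.94% of all genes), and the differences were 1.01 for Lgr5 (0.821), 0.60 for Rnf43 (0.751), 0.49 for Znrf3 (0.746) and 0.09 for Lgr4 (0.960). Without KO culture 2 these were 2.29 (0.200), 1.08 (0.363), 0.86 (0.194) and 0.26 (0.680), and without culture 7 -0.27, 0.12, 0.12 and -0.07.

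Lgr4 passed in a single test of dose, with Rspo3 in WT, where it rose by 0.30 (SE 0.09, adjusted p 0.00748). With TMM scaling that difference was 0.04 (adjusted p 0.789, from 0.0070 to 0.789 over the alternatives), and it was lost without WT culture 10 (0.0518) or 5 (0.0559). TMM scaling moved the median of all genes by -0.28, -0.20 and -0.20 for Rspo1, Rspo2 and Rspo3 in WT and by -0.20 and -0.22 for Rspo1 and Rspo3 in KO. The share of called genes that were higher at 100 ng/ml went with it from 76.6% to 48.1%, 72.7% to 41.4% and 73.4% to 53.8% in WT, and from 73.6% to 46.7% and 73.6% to 52.5% in KO. Relative to that shift Lgr5 still rose by 3.95 to 4.91, Rnf43 by 1.83 to 2.29 and Znrf3 by 1.15 to 1.71 in the 5 tests other than Rspo2 in KO, and all 15 passed. Of all genes, TMM scaling called 8676, 5722 and 9133 with Rspo1, Rspo2 and Rspo3 in WT, against 10224, 6395 and 9839 without it. For Rspo1 and Rspo3 in KO it called 5090 and 7953, against 5694 and 8507. Lgr4 turned negative in 4 of the 6 tests, between -0.06 and -0.14, and 0 of 6 passed.

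Of the 14 stem cell genes that respond to Wnt, 14, 14 and 13 rose with Rspo1, Rspo2 and Rspo3 in WT and 14, 0 and 13 in KO, 7 for Rspo1 in KO without culture 7. Their medians were 2.24, 2.09 and 2.49 in WT and 2.38, 0.38 and 3.14 in KO, against 0.28, 0.17, 0.24, 0.19, 0.04 and 0.24 for all genes. Olfm4 rose by 6.27 with Rspo3 in WT, Sp5 by 4.71 with Rspo2 in WT, and Ascl2 by 3.90 with Rspo3 in KO. Over the 6 tests together 35.4% of all genes passed, as did 81.0% of the stem cell genes, 48.5% of feedback inhibitors, 44.9% of receptors, 28.1% of components, 23.8% of related ligases and 20.8% of proteoglycans, the last 3 below the share of all genes. Feedback inhibitors passed 27 times up and 5 times down, with Axin2 up by 5.50 with Rspo3 in KO, and the Frizzled and other Wnt receptors 24 times up and 11 times down, with Fzd2 up by 2.37 with Rspo3 in WT. Components passed 27 times up, with Tcf7 up by at most 2.26, proteoglycans 10 times up and related ligases 4 times up and 6 times down, where changes such as that of Rnf13 (0.50, lost with TMM scaling and without KO culture 7) were small. Of the genes for R-spondins 1 was tested and 0 passed, and Rspo1, Rspo2, Rspo3 and Rspo4 had at most 0.05, 0.1, 0.1 and 1.60 CPM in organoids and 1.05, 0.80, 1.60 and 1.45 CPM in sorted cells. Paneth cell markers passed 29 times up and enterocyte markers 18 times down, with sums of 100.1 to 1916 CPM and 2222 to 8951 CPM, and their part was not tested.

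At a given dose the ligands ranked Rspo2, then Rspo1, then Rspo3 by the group mean of Lgr5, Rnf43 and Znrf3, in WT and in KO. For Lgr5 the order of all 12 groups began with WT in 100 ng/ml Rspo2 (361 CPM), apart from the next, WT in 100 ng/ml Rspo1 (134 CPM). After it came KO in 100 ng/ml Rspo2 (89.7), KO in 100 ng/ml Rspo1 (74.8), KO in 5 ng/ml Rspo2 (55.5), WT in 100 ng/ml Rspo3 (46.3) and KO in 100 ng/ml Rspo3 (38.2), each of which overlapped with its neighbour. The next, WT in 5 ng/ml Rspo2 (16.9), was apart from KO in 100 ng/ml Rspo3 but overlapped with KO in 5 ng/ml Rspo2 (20.6 and 90.5 CPM) above it. It was apart from WT in 5 ng/ml Rspo1 (4.83) and overlapped with KO in 5 ng/ml Rspo1 (4.25), and last came WT (0.467) and KO (0.225) in 5 ng/ml Rspo3, which did not overlap.

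For Rnf43, WT and KO in 100 ng/ml Rspo2 led with means of 310.4 and 278 CPM, and the groups down to KO in 100 ng/ml Rspo3 (158 CPM) overlapped with their neighbours, KO in 5 ng/ml Rspo2 (177 CPM) among them. WT in 100 ng/ml Rspo3 (104 CPM) stood apart, the 3 low-dose groups of WT Rspo2 (59.2), KO Rspo1 (42.9) and WT Rspo1 (34.8) overlapped, and KO (25.4) and WT (23.6) in 5 ng/ml Rspo3 overlapped at the end of the order. Znrf3 ran from 117 CPM in WT with 100 ng/ml Rspo2, apart from the next, to 12.7 CPM in KO with 5 ng/ml Rspo3. The 7 groups after the top, from KO in 100 ng/ml Rspo2 (79.5 CPM) to WT in 5 ng/ml Rspo2 (43.8 CPM), overlapped with their neighbours. For Lgr4, 11 groups between 329 and 252 CPM overlapped with their neighbours, and WT in 5 ng/ml Rspo3 (213 CPM) lay below them.

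Of 48 tests between ligands, 4 genes in 12 pairs, 21 passed, 6 up and 15 down. The shares of all genes called for Rspo2 against Rspo1, Rspo3 against Rspo1 and Rspo3 against Rspo2 were 0.204%, 0.00523% and 12.7% in WT at 100 ng/ml, and 22.8%, 16.4% and 44.9% in WT at 5 ng/ml. In KO they were 0.0105%, 0% and 0% at 100 ng/ml and 17.9%, 16.2% and 46.7% at 5 ng/ml. Within a genotype and dose, Rspo3 against Rspo2 gave the largest differences. In WT at 100 ng/ml Lgr5 fell by 2.90 (adjusted p 0.000619), Rnf43 fell by 1.57 (0.000272) and Znrf3 fell by 1.09 (0.00127, and 0.0971 without WT culture 30, from 5.06e-05 to 0.0971 over the alternatives). In WT at 5 ng/ml Lgr5 fell by 3.38 (8.70e-06), Rnf43 fell by 1.22 (0.000334) and Znrf3 fell by 1.49 (3.51e-06). In KO at 5 ng/ml Lgr5 fell by 5.18 (5.26e-07), Rnf43 fell by 2.75 (2.42e-07) and Znrf3 fell by 2.10 (5.64e-07). Without KO culture 2 the last 3 differences were -4.17 (0.000187), -2.57 (0.000126) and -2.10 (1.50e-05). Lgr4 fell by 0.34 in WT (0.0035) and fell by 0.27 in KO (0.0482) at 5 ng/ml, but with TMM scaling these differences were -0.15 (0.287, from 0.00327 to 0.287 over the alternatives) and 0.02 (0.919, from 0.0411 to 0.919). The call in KO was also lost without either KO culture (0.154 and 0.237) and without WT culture 30 (0.0839) or 5 (0.0818), and with no filter (0.0804).

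Within a genotype and dose, the differences against Rspo1 were smaller. At 5 ng/ml Rspo2 in WT raised Lgr5 by 1.41 (adjusted p 0.0428), Rnf43 by 0.68 (0.0498) and Znrf3 by 0.73 (0.0130), and over the alternatives the adjusted p ran from 0.0123 to 0.271, 0.0185 to 0.292 and 0.000999 to 0.184. Lgr5 (0.243, 0.271 and 0.0572 without WT cultures 10, 5 and 30) and Znrf3 (0.184, 0.0667 and 0.0656) were lost without any single WT culture and Rnf43 without culture 10 (0.292) or 5 (0.264), and Lgr5 and Rnf43 were lost with TMM scaling (0.0505 and 0.0780) and with no filter (0.0938 and 0.106). In KO at 5 ng/ml Rspo2 raised Lgr5 by 3.40 (0.00135), Rnf43 by 2.06 (0.000305) and Znrf3 by 1.12 (0.0043), and without KO culture 2 by 3.36 (0.00413), 2.32 (0.00149) and 1.21 (0.00521). Rspo3 at 5 ng/ml lowered Lgr5 and Znrf3 in both genotypes, by log2 differences of -1.97 (0.00901) and -0.76 (0.0128) in WT and -1.78 (0.0477) and -0.98 (0.00822) in KO. Of these, Lgr5 in WT was lost without WT culture 10 (0.181), Znrf3 in WT without WT culture 10 (0.101), 5 (0.117) or 30 (0.0985), and Lgr5 in KO without KO culture 2 (-0.81, 0.570; without KO culture 7 it was -2.75) or WT culture 10 (0.109), 5 (0.0615) or 30 (0.0525) and with no filter (0.106). Over the alternatives these 3 ran from 0.000546 to 0.181, 0.000911 to 0.117 and 0.00215 to 0.570. At 100 ng/ml 0 of 4 genes passed by limma against Rspo1 in WT, with 3 at an unadjusted p under 0.05 for Rspo2 (6.49% of all genes) and 3 for Rspo3 (22.3%). In KO at 100 ng/ml 0 passed in any pair, with 0 (Rspo2 against Rspo1), 0 (Rspo3 against Rspo1) and 2 (Rspo3 against Rspo2) at an unadjusted p under 0.05, against 1.29%, 3.73% and 3.54% of all genes. With the culture as a block 24 of 48 passed, the 3 added being Lgr5, Rnf43 and Znrf3 for Rspo3 against Rspo1 in WT at 100 ng/ml (0.0279, 0.0270 and 0.0326, up to 0.538, 0.538 and 0.540 over the alternatives), where the same block called 15.2% of all genes.

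TMM scaling moved the median of all genes by 0.15 for Rspo3 against Rspo2 in WT at 100 ng/ml and by 0.14 at 5 ng/ml, by 0.16 for Rspo3 against Rspo1 in WT at 100 ng/ml, and in KO at 5 ng/ml by -0.15 (Rspo2 against Rspo1) and 0.22 (Rspo3 against Rspo2). The share of called genes that were higher went from 28.9% to 60.9% for Rspo3 against Rspo2 in WT at 100 ng/ml and from 28.3% to 46.1% at 5 ng/ml, and in KO at 5 ng/ml from 28.1% to 48.2%. For Rspo2 against Rspo1 at 5 ng/ml it went from 72.1% to 52.5% in WT and 75.7% to 50.4% in KO, and for Rspo3 against Rspo1 at 5 ng/ml from 22.5% to 37.7% in WT and 19.3% to 32.7% in KO. Relative to that shift, for Rspo3 against Rspo2 the differences were -2.73, -3.35 and -5.07 for Lgr5, -1.40, -1.03 and -2.47 for Rnf43, and -0.91, -1.30 and -1.83 for Znrf3 in WT at 100, WT at 5 and KO at 5 ng/ml, and all 9 passed. Of all genes, TMM scaling called 2349, 8068 and 8587 in these pairs, against 2434, 8580 and 8926 without it.

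Stem cell genes fell with Rspo3 against Rspo2 in 12 of 14 (WT at 100 ng/ml), 13 (WT at 5) and 13 (KO at 5). The 12 became 5 without WT culture 10 and 3 without culture 30. With Rspo2 against Rspo1 at 5 ng/ml 6 rose in WT (0 without culture 10 and 2 without culture 5) and 13 in KO (9 without culture 2 and 5 without culture 7), and with Rspo3 against Rspo1 at 5 ng/ml 7 fell in WT (2 without culture 10) and 10 in KO (2 without culture 2). Olfm4 fell by 6.30 and Axin2 fell by 5.81 with Rspo3 against Rspo2 in KO at 5 ng/ml. Without KO culture 2 these were -5.52 and -5.04, and the 13 in KO stayed 13. Over the 12 pairs together 14.8% of all genes passed, as did 44.6% of the stem cell genes, 16.7% of feedback inhibitors (7 up and 15 down), 17.9% of receptors (12 up and 16 down), 10.9% of components (6 up and 15 down), 8.33% of proteoglycans (1 up and 7 down) and 9.52% of related ligases (6 up and 2 down), the last 3 below the share of all genes. Paneth cell markers passed in 36.1%, 7 times up and 19 times down, with 5, 4 and 6 of 6 down for Rspo3 against Rspo2 in WT at 100 (0 without WT culture 10 or 30), WT at 5 and KO at 5 ng/ml. Enterocyte markers passed 8 times up and 4 times down (16.7%). The part of these markers was not tested.

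Between genotypes, Lgr5 reads in organoids passed the test in 0 of the 6 conditions. KO lay below WT without overlap with 100 ng/ml Rspo1, 100 ng/ml Rspo2 and 5 ng/ml Rspo3, and the genotypes overlapped in the other 3 conditions. Rnf43 lay above WT without overlap with 5 ng/ml Rspo2 (165.5 and 189 CPM against 58.9, 82.2 and 36.6 CPM) and with 100 ng/ml Rspo3 (187 and 129.9 CPM against 112, 115 and 86.0 CPM). Lgr4 was higher in KO without overlap in 4 of 6 conditions and passed in 0, by small margins such as 287 and 289 CPM against 224, 261 and 269.65 CPM with 5 ng/ml Rspo1. Znrf3 was lower in KO without overlap with 100 ng/ml Rspo2 (at most 82.2 against at least 97.2 CPM) and overlapped elsewhere. Of all genes, 19.1% and 20.3% lay apart between the genotypes on either side with 100 and 5 ng/ml Rspo1, 25.1% and 38.5% with Rspo2, and 29.1% and 22.3% with Rspo3.

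By limma 1 of 24 tests between genotypes passed. Of all genes 0.214% and 0.125% were called with 100 and 5 ng/ml Rspo1, 1.20% and 4.54% with Rspo2, and 0.868% and 0.193% with Rspo3. With 100 ng/ml Rspo2 the 229 genes called became 71 and 50 without WT cultures 10 and 30. With 100 ng/ml Rspo3 the 166 became 77, 65 and 50 without WT cultures 10, 5 and 30. Rnf43 rose in KO by 1.64 with 5 ng/ml Rspo2 (SE 0.28, adjusted p 0.00194, from 0.00237 to 0.0367 over the alternatives). Lgr5 was 1.54 higher there (0.104, from 0.0115 to 0.754 over the alternatives), 0.50 higher without KO culture 2 (0.754) and 2.58 higher without KO culture 7 (0.0115), the lone culture being assumed to vary like the others. Without KO culture 2 Rnf43 rose by 1.54 (0.0100). With 100 ng/ml Rspo2 Lgr5 differed by -1.97 (SE 0.55, adjusted p 0.0874), Znrf3 by -0.54 (0.323), Rnf43 by -0.20 (0.827) and Lgr4 by 0.10 (0.759). At an unadjusted p under 0.05 there were 0 of 4 genes for each dose of Rspo1, 2 for each dose of Rspo2 and 1 for each dose of Rspo3, where the shares of all genes with 100 and 5 ng/ml were 8.82% and 8.36% (Rspo1), 12.3% and 22.1% (Rspo2), and 10.7% and 5.40% (Rspo3). WT organoids had Xist of at least 1030 CPM and at most 0.45 CPM of Ddx3y, and KO organoids had 55.0 to 73.5 CPM of Ddx3y, so that genotype and sex cannot be told apart. KO culture 2 in 100 ng/ml Rspo1 had 213 CPM of Xist beside Ddx3y, where the other KO libraries had at most 39.1 CPM. Whether this library or that of KO culture 2 in 5 ng/ml Rspo2 was exchanged or mixed with another was not tested. Without KO culture 2, Lgr5, Rnf43 and Znrf3 rose with the dose of Rspo1 in KO by 4.81, 2.92 and 1.81 and passed, and with 100 ng/ml Rspo1 0 of 4 passed between genotypes.

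With 5 ng/ml Rspo2 12 of 14 stem cell genes were higher in KO, with a median of 1.53 against 0.09 for all genes. Without KO culture 2 the count was 4, without WT culture 10 or 30 it was 3, and without KO culture 7 or WT culture 5 it was 13. Ascl2 rose by 2.56 and passed without any single culture. Ccnd1 rose by 2.05 and was lost without KO culture 7 (0.0548) or WT culture 10 (0.0857) or 30 (0.156) and with no filter (0.0503). Axin2 (2.62) and Olfm4 (2.61) were lost without KO culture 2 or WT culture 10 or 30, and Sp5 (2.53) without KO culture 2 (0.0788). Of the other lists, 1 of 11 feedback inhibitors, 2 of 13 receptors, 1 of 8 proteoglycans and 2 of 16 components rose and 1 receptor (Fzd4, -0.97) fell, with 0 of 7 related ligases. All 7 of these calls were lost without KO culture 2. Paneth cell markers rose in 3 of 6 (3 without that culture, and 2 and 1 without WT cultures 10 and 30), from sums of 441, 430 and 376 CPM in WT cultures 10, 5 and 30, where Lyz1 was most abundant, to 1043 and 1048 CPM in KO cultures 7 and 2, where Itln1 was, and their part was not tested. The other 5 conditions had 0 stem cell genes called. With TMM scaling the share of called genes that were higher in KO with 5 ng/ml Rspo2 went from 70.0% to 54.4%.

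Whether the dose effect itself differed between genotypes was tested for each ligand. With Rspo2 the effect of dose on Lgr5 was smaller in KO than in WT by a log2 difference of -3.51 (SE 0.78, adjusted p 0.0434) and on Rnf43 by -1.84 (SE 0.39, 0.0352), which makes 2 of 4 genes against 0.439% of all genes. That share was 84 genes, which became 9, 143 and 6 without WT cultures 10, 5 and 30. Znrf3 differed by -0.90 (0.228) and Lgr4 by -0.09 (0.839). Both calls were lost without KO culture 2, where the difference was -2.23 (0.799) for Lgr5 and -1.36 (0.763) for Rnf43. They were lost too without WT culture 10 (-3.53, 0.370 and -1.83, 0.368) or 30 (-2.76, 0.537 and -1.47, 0.370), with TMM scaling (-3.36, 0.0559 and -1.68, 0.0539), with no filter (0.0728 and 0.0567) and with a pseudocount of 0.1 (0.101 and 0.0524). Over all alternatives the adjusted p ran from 0.00767 to 0.799 for Lgr5 and 0.00694 to 0.763 for Rnf43. Znrf3 passed with the culture as a block (0.0400) and without KO culture 7 (-1.27, 0.0297), and without KO culture 2 it differed by -0.53 (1.00). TMM scaling moved the median of all genes by 0.13 in this test. For Rspo1 and Rspo3 limma called 0 of 4 genes, against 0% of all genes in each, with 0 at an unadjusted p under 0.05 (2.70% and 2.25% of all genes).

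Of the stem cell genes 3 of 14 had a smaller effect of Rspo2 dose in KO, with a median of -1.74 against -0.12 for all genes. Sp5 differed by -3.21 (adjusted p 0.0320), Ascl2 by -2.97 (0.0169) and Sox9 by -1.71 (0.0281), and of the 16 components Tcf7 by -1.80 (0.0434). All 4 were lost without KO culture 2, WT culture 10 or WT culture 30, which left 0 of 14, while 9 passed without KO culture 7 and 12 with the culture as a block, where 3.97% of all genes were called. Sp5 was also lost with no filter, Sox9 with TMM scaling, and Tcf7 with both and with a pseudocount of 0.1. The other lists of the pathway had 0 called, and of the Paneth cell markers 1 of 6 had a smaller effect of dose in KO (0 to 3 without single cultures), their part not being tested.

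**Figure D3:**
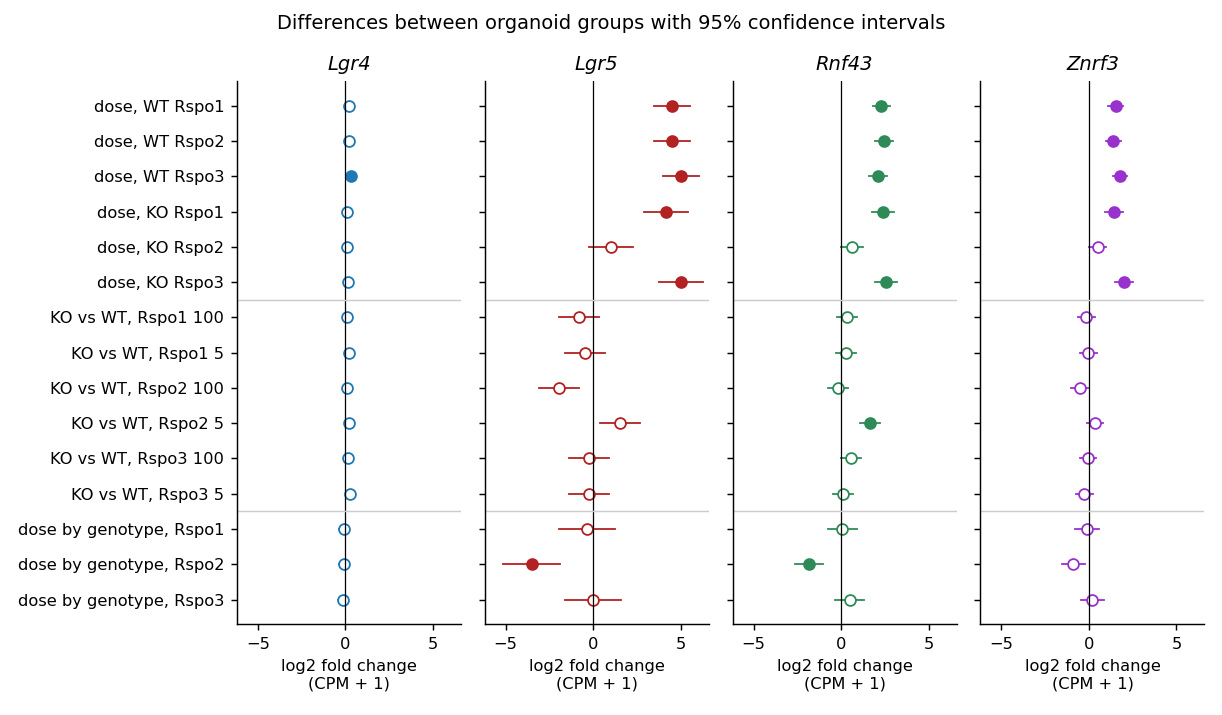
Log2 fold change of log2(CPM + 1) with 95% confidence intervals for Lgr4, Lgr5, Rnf43 and Znrf3 in organoids, for 6 tests of dose, 6 of KO against WT and 3 of dose by genotype, where filled points passed the test. Lgr5, Rnf43 and Znrf3 passed as higher at the high dose in all tests but Rspo2 in KO, where their differences were positive but did not pass. The point of Lgr4 that passed (0.30, Rspo3 in WT) was 0.04 with TMM scaling, by which 4 of its 6 dose differences turn negative.

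Over all 12 groups, the moderated F test with an FDR of 0.001 and a range of at least 16-fold called Lgr5 and none of the other 3 genes tested, against 0.659% of all genes. Its group means spanned 8.16 (adjusted p 7.84e-11), and the spans of Rnf43, Znrf3 and Lgr4 were 3.66, 3.13 and 0.62. Of the stem cell genes 9 of 14 and of the feedback inhibitors 3 of 11 met the same limits, and 0 in the other lists of the pathway.

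Levels of different genes can be compared only per length. Divided by the length of all exons, Lgr4 was above Lgr5 in 15 of 15 sorted libraries, by 1.94 to 8.69 times with a median of 3.50, and in 30 of 30 organoid libraries, by 1.18 to 2110 times with a median of 13.1. The highest ratios, 8.69 and 2110, were those of KO libraries, whose Lgr5 reads are not a measure of intact receptor RNA. In WT organoids the highest was 1020. Divided by coding length, the ratio was 1.06 to 4.75 in sorted cells (median 1.91) and 0.647 to 1150 in organoids (median 7.17, above 1 in 28 of 30). Reads over all exons still count in this measure, and only the divisor changes. It shrinks more for Lgr5 (10264 to 2721 bases) than for Lgr4 (5884 to 2853 bases), which raises Lgr5 against Lgr4. Rnf43 was above Znrf3 per exon length in all libraries, by 2.33 to 5.19 times in sorted cells (median 3.26) and 1.10 to 5.13 times in organoids (median 2.53). The order of levels per exon length in organoids was Lgr4, Rnf43, Znrf3, Lgr5, Lgr6 in 24 libraries, and in 6 Lgr5 came before Znrf3. In sorted cells Lgr5 came next after Lgr4 in 7 of 15 libraries, Rnf43 did so in 5 with Lgr5 before Znrf3 and in 2 with Znrf3 before Lgr5, and in 1 Rnf43 led. By coding length Lgr5 led in 2 and Rnf43 in 2 organoid libraries, and Rnf43 led in 3 sorted libraries.

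**Figure D4:**
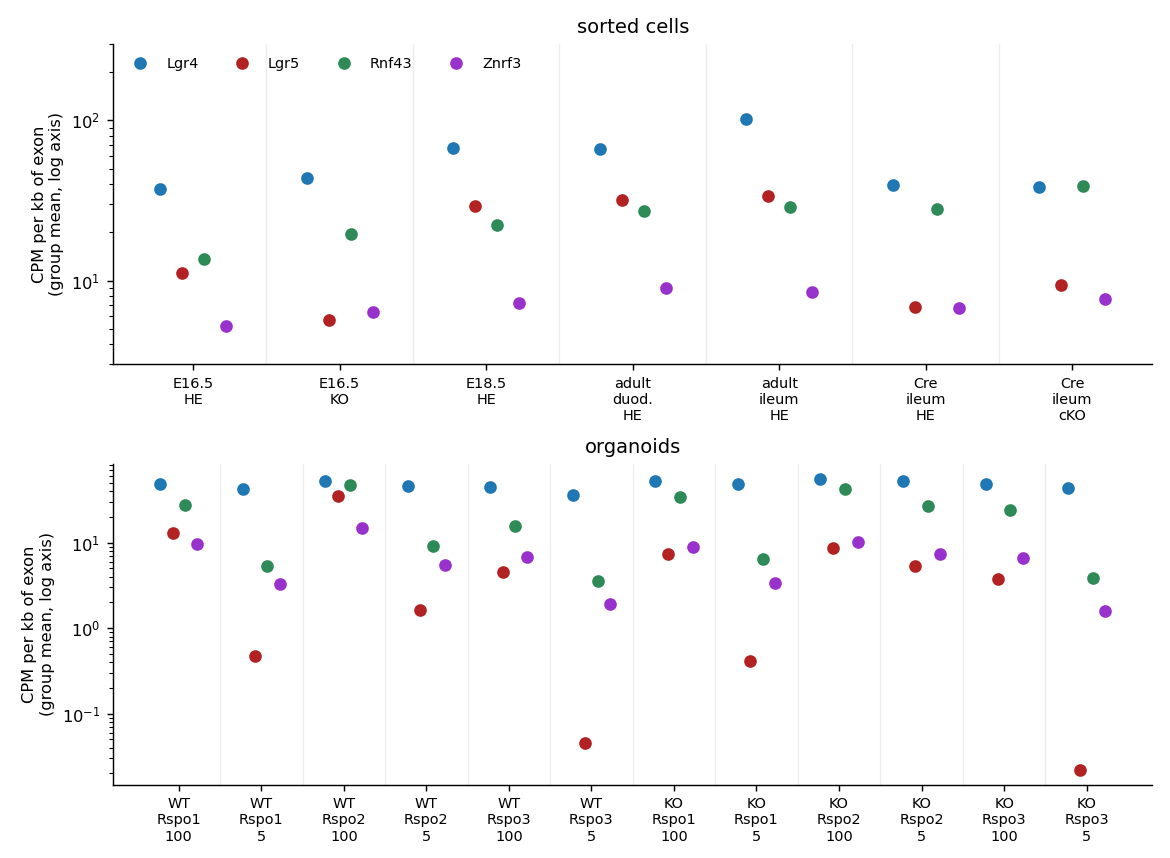
Group-mean CPM per kb of exon (log axis) of Lgr4, Lgr5, Rnf43 and Znrf3 in sorted cells and in organoids. Lgr4 was above Lgr5 in every library by this measure, by a median of 3.50 times in sorted cells and 13.1 times in organoids.

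Group means of log2(CPM + 1) were also compared between genes, as a description. Over the 12 organoid groups Lgr5 went with Znrf3 (Pearson r 0.993) and with Rnf43 (0.962), Rnf43 with Znrf3 (0.957), and Lgr4 with the other 3 at 0.766 to 0.851. Over the 7 sorted groups Lgr5 went most with Lgr4 (0.865) and little with Rnf43 (0.132), while Rnf43 and Znrf3 were at 0.762. These groups take the Cre libraries by their labels, which the study's table contradicts for 2 of 5 libraries, and were not regrouped. They also mix both mouse lines with their different sorts, and include the Lgr5 reads of KO and cKO cells. Among 12338 genes of at least 5 CPM in organoids, the most alike were Clca3a2 (0.996), Scai, Crebzf and 4930577N17Rik, followed by Znrf3 itself, for Lgr5, and Mex3d (0.998), Zfhx3, 2410089E03Rik, Chd6 and Farp1 for Znrf3. Those of Rnf43 were Gm11670 (0.997), Sorcs2, Cep164, Gm17590 and Phf21b, and those of Lgr4 were Sort1 (0.978), Jmjd8, Fxyd3, AW146154 and B3gat3. In sorted cells, among 13103 genes, they were Zfp976 (0.992), Zfp966, Slc16a4, Zfp869 and Gm37206 for Lgr5, and Slc35a3 (0.982), Fbxl5, Cep83os, Adam10 and Zfp935 for Lgr4. For Rnf43 they were Mapk1ip1 (0.987), AC124433.1, Cit, Farp1 and Xpnpep2, and for Znrf3 Ttc33 (0.988), Parp6, Cdkn1b, Tmem131l and 9330151L19Rik. With so few groups many genes reach such values.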

How the data were processed

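RNA sequencing counts of 45 samples were used as deposited by the authors in CPM, made with Trimmomatic 0.36, STAR 2.5.3a and HTSeq 0.9.1 on GRCm38.p4 and rounded up to steps of 0.05. The smallest steps gave each library's depth, with an error of at most 4.66% in simulation. In most organoid libraries a read was worth less than the rounding step of 0.05 CPM, and the fit of the steps was weaker there. Whole reads were recovered for the 4 E16.5 pools (100% of low values whole), on which edgeR called 384 and DESeq2 117 genes between KO and HE, against 91 by limma. Counting tools were run on no other comparison. The test was limma-trend on log2(CPM + 1) after a filter of 1 CPM, to be reached in a number of libraries equal to the size of the smallest group, adjusted by Benjamini-Hochberg over all genes (FDR 0.1 and fold change 1.5 in sorted cells, FDR 0.05 in organoids in 1 fit of 12 groups). Adjusted p are from limma where no other tool is named. Levels per length used exon and coding lengths of GENCODE vM21.

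The receptor and ligase genes that passed the filter were tested in each comparison, and not every log2 difference is printed. From each other list, up to 4 called genes with the largest change per comparison or family of comparisons could be named, and of those a selection is printed. Genes of like pattern are the 5 with the highest Pearson r of group means, each with a mean of at least 5 CPM. Members and lists were chosen with earlier results of these data known.

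Replicate numbers were checked as pairs by the correlation of residuals. It was -0.032 for E16.5 litters, 0.257 for adult mice, and 0.385, 0.397, 0.557, 0.523 and 0.523 for organoid cultures 10, 5, 30, 7 and 2, and it was 0.161 and 0.419 for Cre libraries, which share no mouse. Alternatives were a pseudocount of 0.1, no filter, TMM scaling, another FDR limit, a replicate block of litter, mouse or culture, the spread of all 15 sorted libraries, single adult regions, the other Cre genotypes and leaving out each replicate. In the Cre libraries the block followed the label number alone, which ties unrelated mice, so its values there do not measure a pairing. Tools were R 4.3.3, limma 3.58.1, edgeR 4.0.16, DESeq2 1.42.0, Python 3.11.15, pandas 2.3.3 and numpy 2.4.6.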

Additional observations from a re-analysis of the deposited data

Results flagged for a closer look

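Among the 4 adult HE libraries, Znrf3 had 75.45 CPM in a duodenum library, set apart from the other 3 because these lay close together, between 66.7 and 67.7 CPM. Lgr6 had 0.2 CPM in the same library, which is a single read, and 0 in the other 3, where a count of 0 allows up to 0.675 to 0.73 CPM, so that these values cannot be told apart. Chance sets a sample apart in this way in about 1 in 20 groups.

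The effect of the dose of Rspo2 differed between KO and WT organoids by a log2 difference of -3.51 for Lgr5 and -1.84 for Rnf43, by the test of the difference itself. Both calls were lost without KO culture 2 (-2.23 and -1.36), without WT culture 10 or 30, with TMM scaling, with no filter and with a pseudocount of 0.1.

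For Lgr5, the difference of samples without against samples with a functional allele pointed both ways over the conditions, with every sample on 1 side in each. It was -0.97 at E16.5, -0.81, -1.97 and -0.26 in organoids with 100 ng/ml Rspo1, 100 ng/ml Rspo2 and 5 ng/ml Rspo3, and 0.49 in the adult Cre libraries by their labels. With the genotypes of the study's table the last was -0.37 with overlapping groups. For Znrf3 it was 0.28 at E16.5 and -0.54 in organoids with 100 ng/ml Rspo2. These differences between conditions were not tested.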

How the results depend on the processing

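At the depth of the E16.5 pools a single read was worth up to 0.784 CPM, which limits genes of low level such as Lgr6. With 2 or 3 libraries in a group, single libraries carried several calls. Leaving out a library often left 1 in a group, and that lone library is assumed to vary like the other groups. Where a value moved, the cause was not tested, apart from the fewer samples of a fit.

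Receptor and ligase genes called between E16.5 KO and HE went from 1 to 0 with a pseudocount of 0.1, with no filter, with FDR 0.05 and no fold limit, and without any single pool (0 to 0). For E18.5 against E16.5 leaving out a library gave 0 to 3. Adult against E18.5 gave 1 with ileum alone, and ileum against duodenum gave 1 with the spread of all 15 libraries or the mouse as replicate block and 0 when any library was left out. KO against WT in organoids gave 1 to 2, ligand pairs 15 to 20 against 21 (24 with the culture block), and dose by genotype 0 to 3 against 2, with 0 under the pseudocount of 0.1, no filter and TMM scaling.

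Signs turned as follows. With TMM scaling, Lgr4 differed with dose by -0.1373 and -0.06153 (Rspo1 and Rspo2 in WT) and by -0.1233 and -0.1203 (Rspo1 and Rspo3 in KO), by 0.01961 for Rspo3 against Rspo2 in KO at 5 ng/ml, and by 0.07136 for dose by genotype with Rspo2. Duodenum alone gave -0.0292 for Lgr4 against E18.5. In the Cre libraries the table's genotypes gave -0.3732 for Lgr5 and -0.00288 for Znrf3, and Lgr6 was -0.4725 with a pseudocount of 0.1, -0.01937 with TMM scaling and -0.3612 with the block by label number, which ties unrelated mice. When libraries were left out, ranges were -0.1407 to 0.3653 for Rnf43 and -0.1658 to 0.005263 for Znrf3 (ileum against duodenum), -0.1694 to 0.1021 for Lgr4 and -0.3612 to 0.5321 for Lgr6 (Cre), -0.06741 to 0.2562 for Lgr4 and -0.267 to 2.291 for Lgr5 (Rspo2 dose in KO), -0.01465 to 0.2128 for Lgr4 and -0.5851 to 0.1806 for Rnf43 (KO against WT, 100 ng/ml Rspo2), and -0.2476 to 0.076 for Lgr4 (dose by genotype, Rspo2).

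Over the single genes, leaving out a library kept direction and call in 349 cases, weakened 40, strengthened 2 and turned 11, and the other settings kept 353, weakened 17, strengthened 5 and turned 12. All genes called between E16.5 KO and HE were 91, and 2, 0, 12, 243, 1259 and 830 with a pseudocount of 0.1, no filter, FDR 0.05 alone, TMM scaling, all 15 libraries and the litter block, and 0 to 8 without a pool. The share of all genes called ranged, when single libraries or cultures were left out, over 5.42% to 21.2% (adult against E18.5), 9.31% to 34.8% (Rspo2 dose in WT), 0.633% to 7.46% (KO against WT with 5 ng/ml Rspo2), 1.66% to 14.8% (Rspo3 against Rspo2 in WT at 100 ng/ml), 5.11% to 24.5% and 1.63% to 15.3% (Rspo2 against Rspo1 at 5 ng/ml in WT and KO), and 2.95% to 17.7% and 6.41% to 15.9% (Rspo3 against Rspo1 at 5 ng/ml in WT and KO). Log2 differences then ranged over 0.1462 to 0.4426 for Lgr4 (adult against E18.5), 0.006529 to 0.1714 for Lgr5 (ileum against duodenum), and 0.131 to 0.8499 for Lgr5 and 0.07566 to 0.3113 for Znrf3 (Cre). Between the Cre libraries the genes called were 10 by the labels, 18 with no filter, 3 with the spread of all 15 libraries and 16 with the block by label number. They were 22 without the library labelled cKO 2, and 779 with the genotypes of the study's table, where all cKO libraries were deeper than both HE libraries.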
